A study of Homo sapiens with 9 samples.

Results

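The nuclear lamina and the LINC complex are described here through 10 genes, chosen by name: the lamin genes LMNA, LMNB1 and LMNB2, the inner nuclear membrane genes LBR and EMD, the chromatin-bridging gene BANF1, the SUN genes SUN1 and SUN2, and the nesprin genes SYNE1 and SYNE2. All 10 were among the 13784 genes tested, out of 26475 in the deposited table. RNA was sequenced from hTERT-RPE1, a line of human retinal pigment epithelial cells immortalised with telomerase, 24 h after seeding. The 9 libraries fell into 3 conditions of 3. Control cells carried the empty pLKO vector on fibronectin-coated glass, sh_PIP4K2B cells carried a hairpin against PIP4K2B on the same substrate, and Soft cells carried the empty vector on a fibronectin-coated hydrogel of 2.3 kPa. Each sh_PIP4K2B library came from another hairpin (#1, #2 and #3), so its spread includes differences between hairpins as well as between samples. Cells of all 3 conditions were thus transduced and plated on fibronectin, and the Soft cells were not silenced. The titles of the Control and Soft libraries name the empty vector where the treatment label says control shRNA.

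The nuclear lamina is a meshwork of A-type and B-type lamin filaments under the inner nuclear membrane, where it carries load and anchors peripheral heterochromatin. SUN proteins in the inner membrane bind the lamina on their nuclear side and the KASH domains of nesprins in the space between the membranes, and this bridge, the LINC complex, passes cytoskeletal forces to the nucleus. LBR and emerin, the EMD product, tie chromatin and lamins to the membrane, and BAF, the BANF1 product, links DNA to emerin and other LEM-domain proteins.

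Library totals lay between 19217336 and 24020796 estimated counts, and each member had at least 148 counts in every library. PIP4K2B itself, which encodes the lipid kinase targeted by the hairpins, lay at 122 ± 2.26 TMM-normalised CPM (counts scaled to an equal library total) in Control (SD, n = 3). PIP4K2B lay at 48.4, 40.9 and 36.6 CPM with hairpins #1, #2 and #3, and at 122 ± 3.90 CPM in Soft (SD, n = 3). The hairpins therefore lowered their target as labelled (log2 fold change -1.54, SE 0.12, edgeR quasi-likelihood test, adjusted p = 3.80e-04). The conditions differed in spread: the median SD of log2 CPM over all genes was 0.08 in Control, 0.36 in sh_PIP4K2B and 0.07 in Soft. Of the retinal pigment epithelium markers checked, 6 of 13 passed the filter on low counts, the visual cycle genes RPE65 and RLBP1 had no counts in Control, and TTR had none in any library. The marker list summed to 1973 to 2120 CPM in Control libraries, 755 to 1163 with the hairpins and 959 to 1010 on the soft gel. The keratin genes KRT8 and KRT18, given below, made up most of this sum in each condition. The sum therefore says little of the other markers. In edgeR 1 of the 6 was called higher and 1 lower with the hairpins, beside 2.76% and 2.77% of all genes. In Soft 2 were called higher and 2 lower, beside 15.8% and 14.8%. Named after their values were seen, the keratin gene KRT18 had means of 902, 420 and 364 CPM in Control, the hairpins and Soft, and KRT8 of 1079, 558 and 546 CPM, while OTX2 had 10.9, 17.1 and 37.2 CPM. Markers of leukocytes, endothelium, other epithelia and neurons together gave 0.395 to 0.874 CPM in Control libraries, 0.434 to 0.741 with the hairpins and 4.83 to 5.81 in the Soft ones. Of these, the endothelial gene PECAM1 averaged 4.79 CPM in Soft and 0.103 CPM in Control, while CDH5, also endothelial, had no counts in either. The part of both marker sets in the results that follow was not tested. Nothing in the labels says that replicates came from separate cultures, so p-values measure the spread between these samples only. In the fit of the 9 libraries the 3 conditions shared 1 estimate of the spread per gene. Tests of Soft against Control in that fit therefore also carry the spread between the hairpin libraries.

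Levels per length put the A-type lamin gene first. In Control, LMNA lay at 290 ± 11.5 CPM per kb of its canonical transcript, BANF1 at 172 ± 4.01, EMD at 61.7 ± 3.21 and LMNB2 at 46.3 ± 2.09 (SD, n = 3). SUN2 at 27.4 ± 1.19 and LMNB1 at 27.4 ± 0.276 CPM per kb followed, and these neighbours overlapped. SUN1 came next at 22.9 ± 1.03, LBR at 15.4 ± 0.373, SYNE1 at 2.70 ± 0.103 and SYNE2 at 0.658 ± 0.0300 CPM per kb, with no overlap between neighbours other than SUN2 and LMNB1. The order from SUN2 to SUN1 depended on the transcript used: with the longest annotated transcript the Control means were 22.8 for LMNB1, 20.5 for SUN2 and 20.5 CPM per kb for SUN1. The giant nesprins are long genes with short products, SYNE1 having coding transcripts from 630 to 27708 nt, and gene counts do not separate these products. The same holds for LMNA, whose single gene gives both lamin A and lamin C. In Soft, SUN2 moved up from the fifth to the third place at 54.8 ± 0.786 CPM per kb, ahead of EMD at 49.2 ± 0.156 (SD, n = 3), although with the longest transcript EMD stayed ahead.

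**Figure D1:**
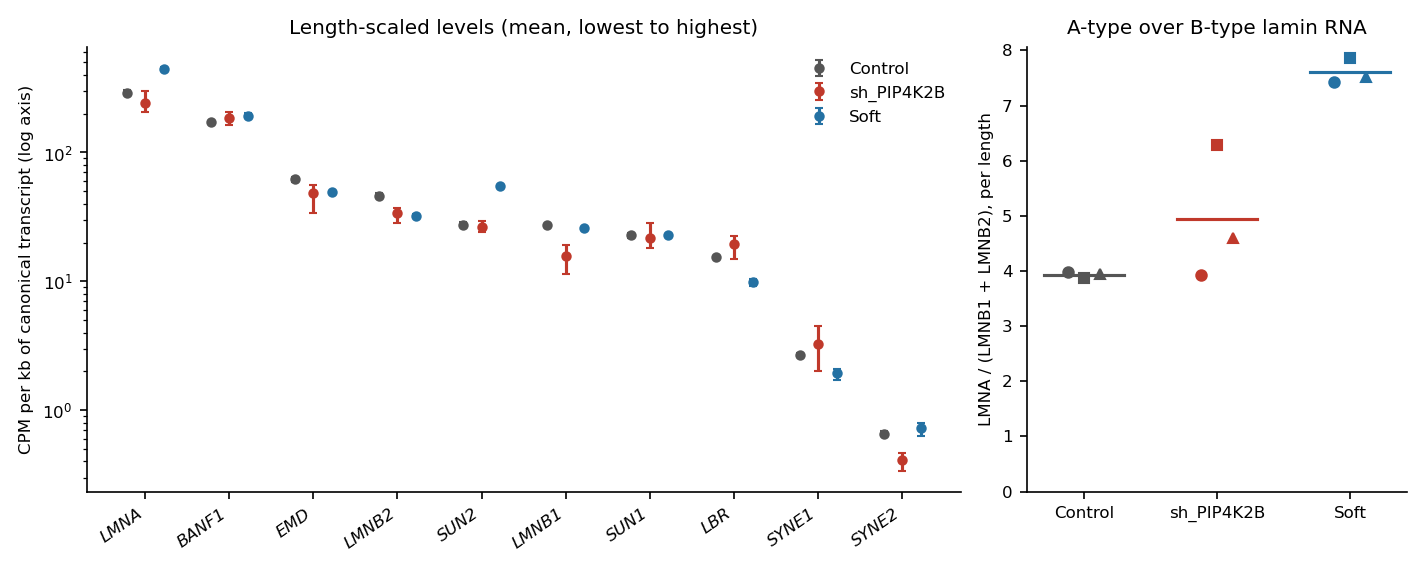
Left, level of each gene per kb of its canonical transcript (log axis, mean of 3 libraries, bars from the lowest to the highest library) in Control, sh_PIP4K2B and Soft; LMNA is highest and SYNE2 lowest in each condition. Right, ratio of LMNA to LMNB1 plus LMNB2, all per length, in each library (circle, square and triangle for replicates 1, 2 and 3, line for the mean); the 3 Soft libraries lie at 7.43 to 7.86 and the Control libraries at 3.87 to 3.99.

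The upstream sequences of 3 members that differed between Soft and Control are shown, since their RNA levels moved in opposite directions. Each is the 250 bases before a start site in RefSeq on GRCh38.p14, which gave 19 such windows for 9 of the members and none for SUN1. Capitals mark matches to an E2F site (TTTCCCGC, TTTCGCGC, TTTGCCGC or TTTGGCGC), the cell cycle homology region (TTTGAA) or the CCAAT box (CCAAT), searched on both strands. GGAATG, the TEAD site, was searched too and was found in none of the 3. LBR, which also differed between Soft and Control, is not shown, and its window held no match to any of these sites. LMNA and SUN2 had further windows with no match, so those shown are the ones with matches.
LMNA, chr1:156082323-156082572, plus strand: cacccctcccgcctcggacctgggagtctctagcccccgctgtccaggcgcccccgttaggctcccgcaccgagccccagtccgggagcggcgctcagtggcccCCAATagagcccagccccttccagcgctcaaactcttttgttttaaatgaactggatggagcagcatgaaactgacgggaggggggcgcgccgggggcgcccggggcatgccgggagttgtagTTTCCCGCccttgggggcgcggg
SUN2, chr22:38755999-38756248, minus strand: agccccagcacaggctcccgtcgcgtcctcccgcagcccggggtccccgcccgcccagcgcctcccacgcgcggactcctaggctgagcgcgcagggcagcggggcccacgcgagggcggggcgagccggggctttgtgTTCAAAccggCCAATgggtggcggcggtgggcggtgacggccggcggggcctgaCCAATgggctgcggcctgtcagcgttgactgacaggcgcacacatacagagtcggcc
LMNB2, chr19:2456960-2457209, minus strand: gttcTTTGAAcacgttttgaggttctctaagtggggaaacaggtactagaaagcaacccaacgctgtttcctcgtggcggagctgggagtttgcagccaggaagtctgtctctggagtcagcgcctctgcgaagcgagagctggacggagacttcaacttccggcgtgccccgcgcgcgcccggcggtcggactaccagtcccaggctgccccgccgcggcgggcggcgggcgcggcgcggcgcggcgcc
The LMNA window shown held an E2F site at 23 to 16 bases before the start and a CCAAT box at 146 to 142. The SUN2 window shown held a cell cycle homology region on the opposite strand at 111 to 106 bases before the start. It also held CCAAT boxes at 101 to 97 and at 57 to 53. In the LMNB2 window a cell cycle homology region lay at 246 to 241 bases before the start. Among all 35116 RefSeq windows of this length, 2.79% held an E2F site, 13.3% a cell cycle homology region, 32% a CCAAT box and 11.9% a TEAD site. These matches describe the letters and say nothing of binding.

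On the soft gel, 4 of the 10 members passed the threshold against Control (edgeR quasi-likelihood test over the 9 libraries, adjusted p below 0.01), where 30.6% of all genes did. SUN2 and LMNA were higher, beside 15.8% of all genes, and LMNB2 and LBR were lower, beside 14.8%. The median log2 fold change of the members was -0.04, beside 0.01 over all genes tested. Library values did not overlap between the conditions for 8 of the 10 members, beside 79.4% of all genes, so as a group the members moved about as often as other genes.

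**Figure D2:**
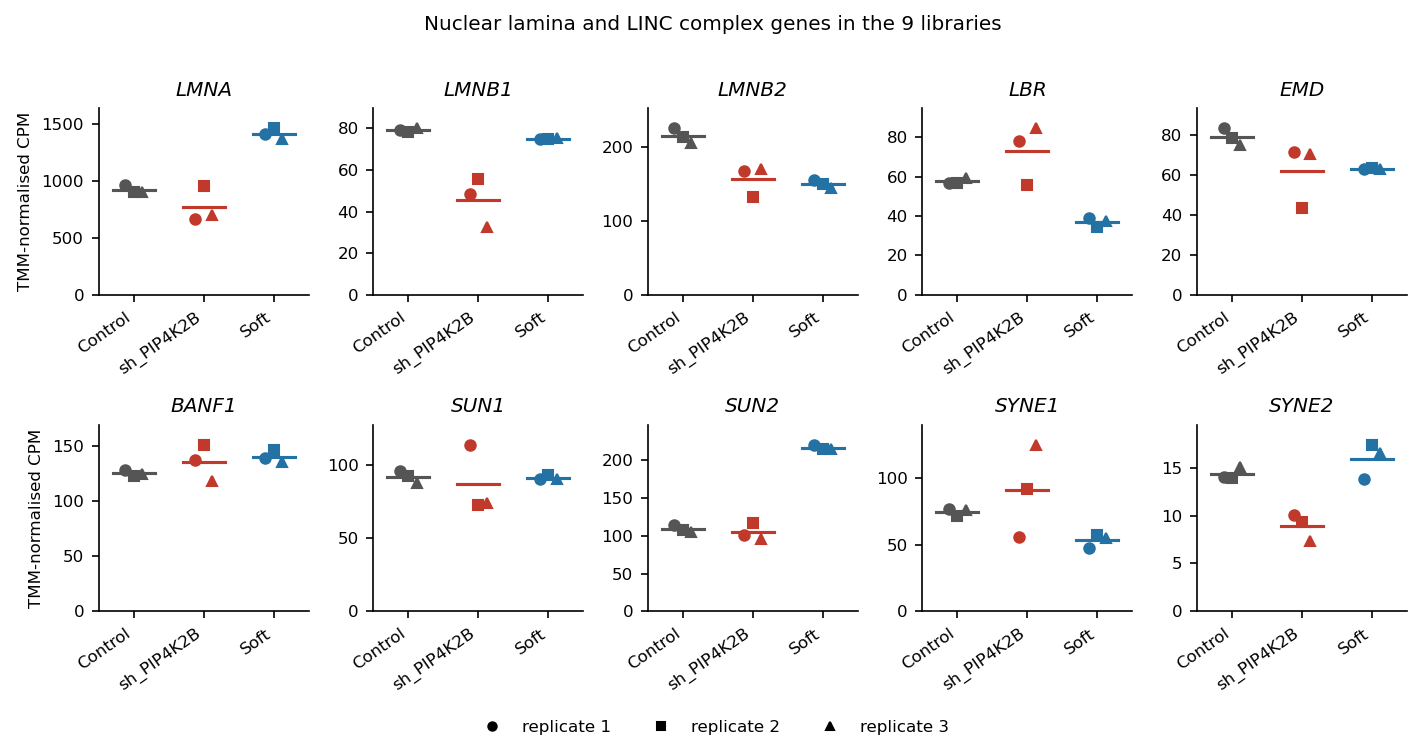
TMM-normalised CPM of each member (vertical axis from 0) in each library of Control, sh_PIP4K2B and Soft; symbols mark replicates 1, 2 and 3 (hairpins #1, #2 and #3 in sh_PIP4K2B) and lines the means. The SUN2 and LMNA values in Soft lie above all others of the gene, those of LBR below, and the sh_PIP4K2B values are the most scattered for 9 of the 10 genes.

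Among the lamins, LMNA (chromosome 1, 156082573 to 156140081, plus strand, GRCh38) was at 963, 897 and 901 CPM in Control replicates 1, 2 and 3. It was at 1405, 1457 and 1362 CPM in the Soft libraries. All Soft values lay above all Control values, and LMNA rose 1.53-fold on the soft gel (log2 fold change 0.61, SE 0.15, edgeR adjusted p = 0.0085). LMNB2 (chromosome 19, 2427638 to 2456959, minus strand), which encodes lamin B2, was at 225, 213 and 205 CPM in Control and at 156, 150 and 144 CPM in Soft. Again the conditions did not overlap, and LMNB2 fell by 0.52 on the log2 scale (SE 0.12, edgeR adjusted p = 0.0063). LMNB1 (chromosome 5, 126776623 to 126837020, plus strand), which encodes lamin B1, was at 79.4, 78.3 and 79.9 CPM in Control and at 74.9, 75 and 75.2 CPM in Soft. The Soft values of LMNB1 lay just below those of Control without overlap, but the difference did not pass (log2 fold change -0.08, 95% interval -0.45 to 0.29, edgeR adjusted p = 0.72) and its sign turned with library size scaling. The B-type lamin genes therefore showed unlike values on the soft gel, the difference between them not having been tested.

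At the inner nuclear membrane, LBR (chromosome 1, 225401502 to 225428925, minus strand), the lamin B receptor and a sterol reductase, was at 56.6, 56.9 and 59.2 CPM in Control. It was at 38.9, 34.3 and 37.5 CPM in Soft. Every Soft library lay below every Control library, and LBR fell by 0.64 on the log2 scale (SE 0.15, edgeR adjusted p = 0.0068). EMD (chromosome X, 154379273 to 154381574, plus strand) was at 83.3, 78.7 and 75.1 CPM in Control and at 62.9, 63.3 and 63.1 CPM in Soft. The Soft values of EMD were all lower and nearly equal, yet the difference missed the threshold (log2 fold change -0.33, SE 0.17, edgeR adjusted p = 0.15). BANF1 (chromosome 11, 66002228 to 66004149, plus strand) was at 129, 123 and 125 CPM in Control and at 140, 147 and 136 CPM in Soft. These did not overlap either, and the difference of 0.17 on the log2 scale did not pass (SE 0.11, edgeR adjusted p = 0.24). For BANF1, 5.94% of its 75-base stretches also occur in the pseudogene BANF1P3, so its level is less certain than that of the other members, which shared none.

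In the LINC complex, SUN2 (chromosome 22, 38733290 to 38794143, minus strand) was at 114, 107 and 105 CPM in Control and at 221, 216 and 215 CPM in Soft. The Soft libraries lay together well above the Control libraries, and SUN2 rose 2.00-fold (log2 fold change 1.00, SE 0.10, edgeR adjusted p = 9.77e-05). Its paralogue SUN1 (chromosome 7, 816615 to 896435, plus strand) was at 95.7, 92.4 and 87.5 CPM in Control and at 90.7, 92.9 and 90.6 CPM in Soft. The SUN1 values overlapped, with a log2 fold change of -0.01 whose sign turned with other scalings (95% interval -0.38 to 0.36, edgeR adjusted p = 0.98). SYNE1 (chromosome 6, 152121687 to 152637801, minus strand), the gene of nesprin-1, was at 76.6, 71.5 and 76.2 CPM in Control and at 47.8, 57.6 and 55.2 CPM in Soft. Its Soft values were all lower, and the test did not call it (log2 fold change -0.48, SE 0.24, edgeR adjusted p = 0.13). SYNE2 (chromosome 14, 63761899 to 64226433, plus strand), the gene of nesprin-2, was at 14.0, 14.0 and 15.1 CPM in Control and at 13.8, 17.4 and 16.5 CPM in Soft. Here the conditions overlapped (log2 fold change 0.15, 95% interval -0.19 to 0.48, edgeR adjusted p = 0.45).

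How many members were called on the soft gel differed between fits. A fit of the 6 Control and Soft libraries alone called 7 members, adding EMD (edgeR adjusted p = 1.23e-05), SYNE1 (2.81e-06) and BANF1 (0.0023), while 70.7% of all genes passed in it, and the cause of that change was not tested. In the other direction, LMNA, LMNB2 and LBR each missed the threshold when any 1 Control or Soft library was left out, and SUN2 did not. Without 1 of Control replicates 1 to 3 the edgeR adjusted p was 0.027 to 0.040 for LMNA, 0.019 to 0.029 for LMNB2 and 0.022 to 0.028 for LBR. Without 1 of Soft replicates 1 to 3 it was 0.027 to 0.036 for LMNA, 0.022 to 0.034 for LMNB2 and 0.021 to 0.034 for LBR. In these fits without 1 Control or Soft library 17.9% to 19.4% of all genes passed. LMNA also missed it with no filter on low counts (edgeR adjusted p = 0.012). Scaling by library size alone ended the calls of LMNB2 (log2 fold change -0.41, edgeR adjusted p = 0.049) and LBR (-0.53, 0.041). Of all genes called, 51.7% were higher in Soft, and 62.9% with that scaling.

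**Figure D3:**
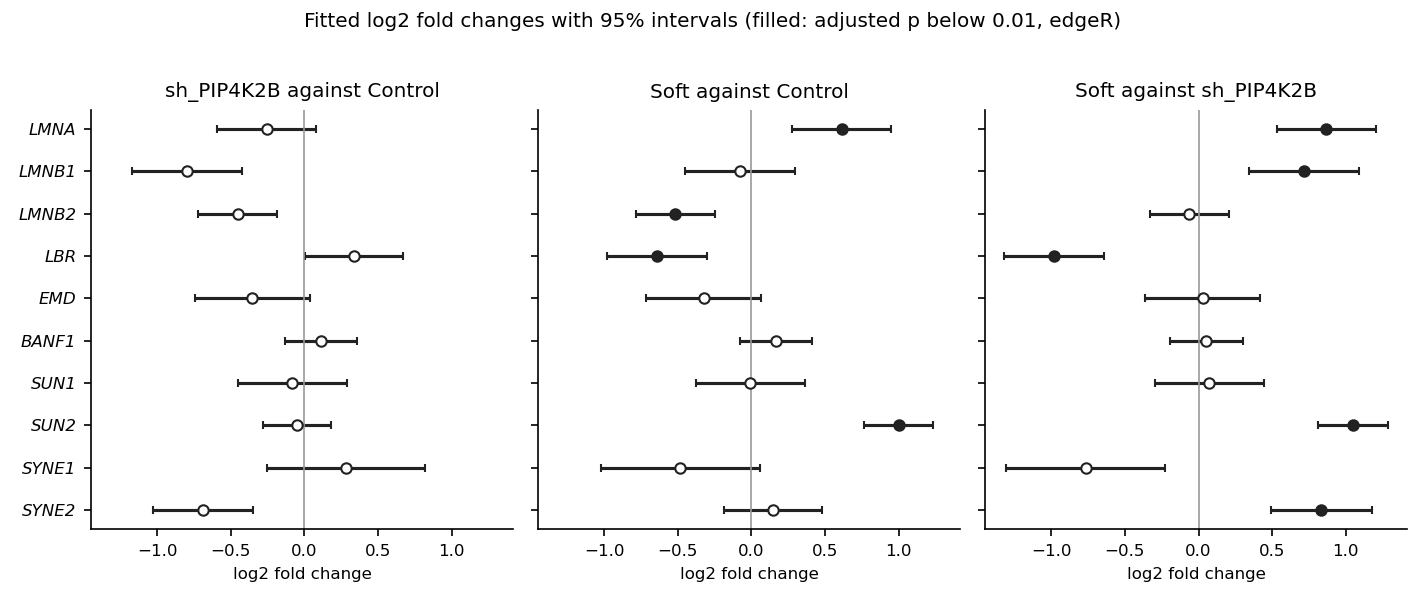
Fitted log2 fold change (horizontal axis) of each member with its 95% interval in the 3 comparisons; filled points passed an adjusted p of 0.01 in the edgeR test. Against Control, 0 members passed in sh_PIP4K2B, beside 5.54% of all genes, and 4 in Soft, beside 30.6%. Between Soft and sh_PIP4K2B 5 passed, beside 30.0%.

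With PIP4K2B silenced on glass, 0 of the 10 members passed the same threshold against Control, where 5.54% of all genes did. At an unadjusted p below 0.05, edgeR gave 4 members (LMNB1, LMNB2, LBR and SYNE2), beside 33.2% of all genes. DESeq2 called 3, all lower (LMNB1, LMNB2 and SYNE2), beside 15.0% of all genes and 7.11% in that direction. Limma voom with weights per condition called LMNB1 alone, beside 2.31% of all genes and 1.14% that were lower. The values of LMNB1, LMNB2, EMD and SYNE2 were below every Control library with each hairpin, which makes 4 of 10 members not overlapping, beside 34.1% of all genes and 16.7% in that direction. The median log2 fold change of the members was -0.17, and 0.05 over all genes tested.

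LMNB1 was at 48.6, 55.4 and 32.8 CPM with hairpins #1, #2 and #3. Each lay below the Control range, hairpin #3 the furthest, and the log2 fold change was -0.80 (SE 0.17, edgeR adjusted p = 0.013; DESeq2 adjusted p = 2.19e-04). Without hairpin #2 or without hairpin #3 LMNB1 passed in the edgeR test as well (log2 fold change -0.96, adjusted p = 0.0035 and -0.61, adjusted p = 0.0018). In those fits 14.4% and 12.7% of all genes passed, beside 5.54% with all 9 libraries. Without hairpin #1 LMNB1 did not pass (edgeR adjusted p = 0.012). LMNB2 was at 167, 132 and 170 CPM, again under every Control library (log2 fold change -0.45, SE 0.12, edgeR adjusted p = 0.030; DESeq2 adjusted p = 0.0029). LMNA was at 660, 951 and 703 CPM, so that hairpin #2 left it within the Control range while the other hairpins gave lower values. Over the 3 hairpins its log2 fold change was -0.26 (95% interval -0.59 to 0.08, edgeR adjusted p = 0.27). Without hairpin #2 it was -0.44 (edgeR adjusted p = 0.0063), in the fit where 14.4% of all genes passed. That fit leaves out the hairpin whose LMNA value was not lower. Without hairpin #1 or #3 LMNA did not pass (log2 fold change up to -0.16, edgeR adjusted p up to 0.38).

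At the membrane and in the SUN genes, values also differed between hairpins. LBR was at 78.3, 55.6 and 84.5 CPM, above Control with hairpins #1 and #3 and just below it with hairpin #2. Its log2 fold change was 0.34 (SE 0.15, edgeR adjusted p = 0.15), and 0.50 without hairpin #2 (edgeR adjusted p = 0.0050), where 14.4% of all genes passed. That fit leaves out the hairpin whose LBR value differed in direction. Without hairpin #1 or #3 LBR did not pass (log2 fold change down to 0.22, edgeR adjusted p up to 0.27). EMD was at 71.7, 43.4 and 70.5 CPM, where hairpin #2 alone stood far from Control (log2 fold change -0.35, SE 0.17, edgeR adjusted p = 0.19). BANF1, at 137, 151 and 118 CPM, lay on both sides of the Control values (log2 fold change 0.11, 95% interval -0.13 to 0.36, edgeR adjusted p = 0.51). SUN1 was at 114, 72.6 and 74.1 CPM, higher than Control with hairpin #1 and lower with the others (log2 fold change -0.08, 95% interval -0.45 to 0.29, edgeR adjusted p = 0.76). SUN2 was at 101, 117 and 95.7 CPM and stayed close to Control (log2 fold change -0.05, 95% interval -0.28 to 0.18, edgeR adjusted p = 0.77); with library size scaling the signs of both SUN genes turned.

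Of the nesprin genes, SYNE1 varied most between hairpins among the members, and SYNE2 was lower with each. SYNE1 was at 55.8, 92.2 and 125 CPM, below Control with hairpin #1 and above it with the others, a range of 1.17 on the log2 scale that was wider than that of 78.1% of all genes. It was not called (log2 fold change 0.28, 95% interval -0.25 to 0.82, edgeR adjusted p = 0.44). SYNE2 was at 10.1, 9.34 and 7.32 CPM, all under the Control range (log2 fold change -0.69, SE 0.15, edgeR adjusted p = 0.016, DESeq2 adjusted p = 6.69e-04). It passed in the edgeR test without hairpin #1 (log2 fold change -0.79, adjusted p = 0.0064), where 11.9% of all genes passed. Without hairpin #2 or #3 SYNE2 did not pass (edgeR adjusted p up to 0.015). All 3 hairpins moved 4 of the 10 members in 1 direction, or 40% beside 45.7% of all genes, and the 3 Soft libraries did so for 8, or 80% beside 89.7%.

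**Figure D4:**
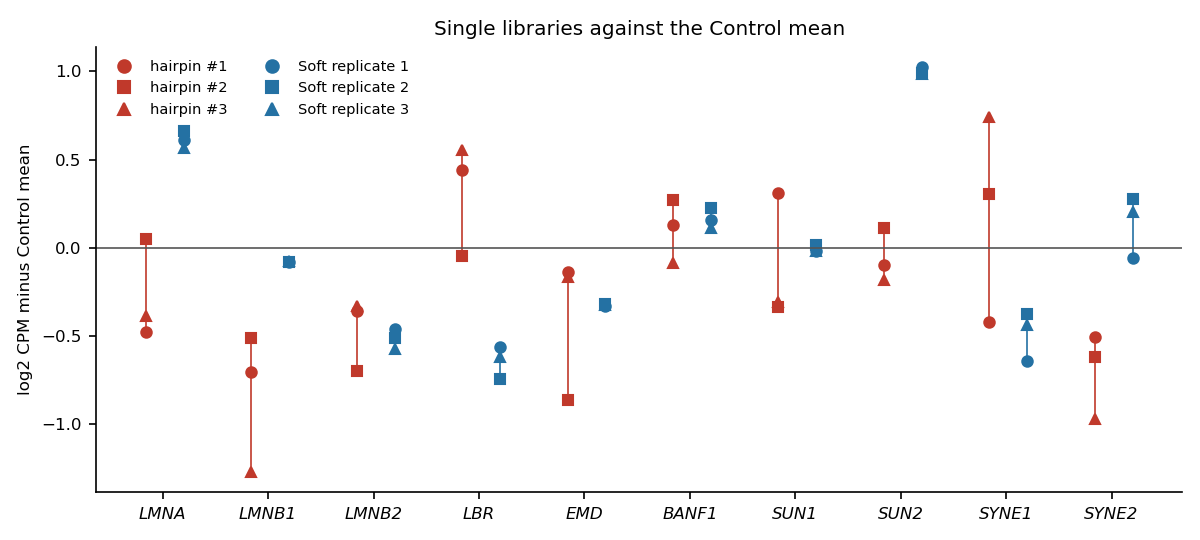
Difference of log2 CPM from the Control mean (vertical axis) for each member in the 3 sh_PIP4K2B libraries (red) and the 3 Soft libraries (blue); thin lines join the lowest and the highest library of a condition. LMNB1, LMNB2, EMD and SYNE2 lie below 0 with every hairpin and SYNE1 spans 1.17 between hairpins.

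Comparing the Soft libraries with the hairpins directly showed where the conditions, each set against the same Control libraries above, differed from each other. Between them 5 of 10 members passed, beside 30.0% of all genes, 4 being higher in Soft (14.5% of all genes) and 1 lower (15.5%). SUN2 was higher in Soft (log2 fold change 1.05, SE 0.11, edgeR adjusted p = 9.28e-05), as were LMNA (0.87, SE 0.15, adjusted p = 0.0015), SYNE2 (0.83, SE 0.15, adjusted p = 0.0019) and LMNB1 (0.72, SE 0.17, adjusted p = 0.0067). LBR was lower in Soft (log2 fold change -0.98, SE 0.15, edgeR adjusted p = 7.63e-04). For these 5 genes the libraries of both conditions did not overlap, beside 54.0% of all genes. LMNB2, which lay below every Control library in both conditions, did not pass between them (log2 fold change -0.06, 95% interval -0.33 to 0.20, edgeR adjusted p = 0.69). EMD, SUN1 and BANF1 also overlapped, with log2 fold changes of 0.03, 0.07 and 0.05, and SYNE1 missed the threshold (log2 fold change -0.77, SE 0.24, edgeR adjusted p = 0.026). The fit of the 6 libraries of both conditions called SUN2 and LBR alone, beside 16.1% of all genes. Limma voom did not call SYNE2 (adjusted p = 0.064), and DESeq2 called SYNE1 as well (adjusted p = 0.0072). LMNB1 missed the threshold without any 1 Control or Soft library (edgeR adjusted p = 0.014 and 0.024 to 0.025), and SYNE2 without Soft replicate 2 or 3 (0.012 and 0.011).

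Ratios within a library do not depend on the scaling between libraries. LMNA over the sum of LMNB1 and LMNB2, all per length, was 3.99, 3.87 and 3.94 in Control and 7.43, 7.86 and 7.51 in Soft. With hairpins #1, #2 and #3 it was 3.93, 6.28 and 4.59, so hairpin #1 lay within the Control values and the others between Control and Soft. Against LMNB1 alone, the ratio of LMNA was 10.6 ± 0.410 in Control and 17.1 ± 0.601 in Soft (SD, n = 3). It was 12.4, 15.6 and 19.5 with the hairpins, each above every Control value. SUN2 over SUN1 per length was 1.20 ± 0.0181 in Control and 2.40 ± 0.0571 in Soft (SD, n = 3), and 0.904, 1.64 and 1.31 with the hairpins, on both sides of Control. These ratios were formed after the values had been seen and carry no test.

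The genes whose pattern over the 9 libraries came nearest to that of LMNA, by the root mean square difference of log2 CPM centred on each gene's mean, were NSMCE1 (0.05), CAPNS1 (0.06) and NIPSNAP1 (0.07). NSMCE1 encodes a subunit of the SMC5/6 complex and CAPNS1 the calpain small subunit. Nearest to LMNB1 were UNC119B (0.09), NUSAP1 (0.10), which encodes a spindle-associated protein, and TMEM141 (0.10).

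The wider nuclear envelope was measured through 4 further lists. Of 12 tested genes of the inner nuclear membrane and lamina outside the members, 2 were called higher and 4 lower on the soft gel. The shares of all genes were 15.8% and 14.8%. Their median log2 fold change was -0.08, beside 0.01 over all genes tested. NRM, a multi-pass inner membrane protein gene (17.4 to 29.2 CPM, log2 fold change 0.75, SE 0.15), and PRR14, whose product tethers heterochromatin to the lamina (26.7 to 43.8 CPM, 0.72, SE 0.15), were the highest of those called. TMEM201, which encodes the membrane protein Samp1 (36.5 to 18.9 CPM, -0.95, SE 0.12), and NEMP1 (45.0 to 25.9 CPM, -0.80, SE 0.16) were the lowest of those called. With PIP4K2B silenced, TMPO, the gene of the lamin-binding LAP2 proteins, was the only one of the 12 that edgeR called, beside 5.54% of all genes. It went from 136 to 90.7 CPM (log2 fold change -0.59, SE 0.09, edgeR adjusted p = 0.0040). DESeq2 called 2 of the 12 in sh_PIP4K2B, both lower, beside 15.0% of all genes. Limma voom called 0 (TMPO adjusted p = 0.031), beside 2.31%, as did edgeR on the 6 libraries alone (0.041), beside 0.0375%. With each library left out in turn, which like the other alternatives for these lists was run after the values had been seen, 3 to 9 of the 12 were called in Soft. In those fits 17.9% to 45.6% of all genes passed. TMEM201 kept its call each time, whereas without single Control or Soft libraries NRM, PRR14, NEMP1 and TMPO missed the threshold, with edgeR adjusted p of up to 0.017, 0.019, 0.015 and 0.028. Library size scaling also ended the call of NEMP1 (edgeR adjusted p = 0.014).

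Of the other SUN and KASH genes, listed together with the formin gene FHOD1, which has neither domain, 4 of 8 passed the filter on low counts. FHOD1 was among these 4 and was not called with the hairpins or on the soft gel (edgeR adjusted p = 0.29 and 0.65). On the soft gel 2 of the 4 were called higher, beside 15.8% of all genes. SYNE3, the gene of nesprin-3, which binds plectin, went from 2.02 to 5.42 CPM (log2 fold change 1.42, SE 0.29, edgeR adjusted p = 0.0035), and the SUN-domain gene SPAG4 from 1.17 to 2.87 CPM (1.28, SE 0.23, adjusted p = 0.0016). With the hairpins 0 of the 4 passed in edgeR, beside 5.54% of all genes, and 0 had an unadjusted p below 0.05, beside 33.2%. DESeq2 and limma voom called 0, beside 15.0% and 2.31%. Without hairpin #3, 1 passed in edgeR, beside 12.7%. Without single Control or Soft libraries SYNE3 missed the threshold in Soft (edgeR adjusted p up to 0.021), as did SPAG4 without Control replicate 1 or 3 (up to 0.012). Of 11 tested genes of lamin processing and envelope remodelling, VRK1, whose kinase phosphorylates BAF, was lower in both conditions, with means of 24.8 CPM in Control, 16.2 with the hairpins and 13.2 on the soft gel (edgeR adjusted p = 0.0057 and 1.79e-04). ICMT, the methyltransferase of prenylated proteins including lamins, was lower in Soft (190 to 132 CPM, log2 fold change -0.53, SE 0.11, edgeR adjusted p = 0.0040). In edgeR 1 of the 11 was thus called in sh_PIP4K2B, beside 5.54% of all genes, and 2 in Soft, beside 30.6%. DESeq2 called 4 in sh_PIP4K2B, 2 of them higher, beside 15.0%, and 4 in Soft, 1 of them higher, beside 39.6%. Limma voom called 0 and 7, beside 2.31% and 70.0%. In sh_PIP4K2B, VRK1 missed the threshold in limma voom (adjusted p = 0.10), with library size scaling (edgeR adjusted p = 0.027) and in the fit of 6 libraries (0.047). In that fit of 6 libraries 0.0375% of all genes passed. VRK1 in Soft kept its call with each library left out, but without any 1 Control or Soft library VRK1 in sh_PIP4K2B (edgeR adjusted p up to 0.039) and ICMT in Soft (up to 0.024) did not; library size scaling ended the latter as well (0.012).

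Of 32 nuclear pore genes, 17 were called lower on the soft gel, beside 14.8% of all genes, and 1 higher, beside 15.8%. Their median log2 fold change was -0.47, beside 0.01 over all genes tested. NUP35 (log2 fold change -1.05, SE 0.16) and NUP155 (-1.03, SE 0.17), both of the inner ring of the pore, were the lowest, and the membrane nucleoporin gene NUP210 was the one that rose (0.89, SE 0.17). With each library left out in turn 9 to 22 of the 32 were called, beside 17.9% to 45.6% of all genes, fewest without single Control or Soft libraries. NUP35 and NUP155 were called each time, while NUP210 missed the threshold in 5 cases (edgeR adjusted p up to 0.016). With the hairpins 0 of the 32 passed in edgeR, beside 5.54% of all genes, and their median was -0.07, beside 0.05 over all genes tested. At an unadjusted p below 0.05, 3 were higher and 7 lower there, DESeq2 called 2 in each direction, and limma voom called 0.

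**Figure D5:**
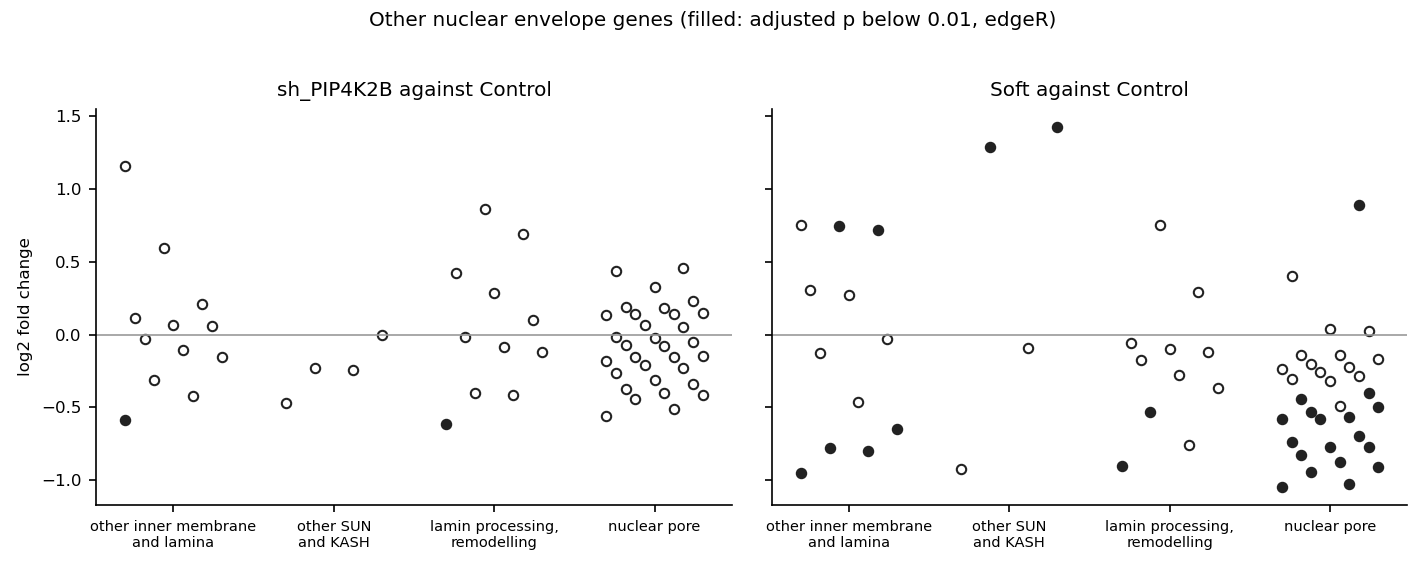
Log2 fold change (vertical axis) of each tested gene of 4 other nuclear envelope lists in sh_PIP4K2B against Control and in Soft against Control; each point is a gene, filled where the edgeR adjusted p was below 0.01, and its horizontal place within a list has no meaning. In Soft, 17 of the 32 nuclear pore genes are filled below 0, beside 14.8% of all genes called lower. In sh_PIP4K2B none of them is filled, beside 5.54% of all genes called.

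Many markers of cell proliferation had lower values than Control in both conditions, but not all. Of 19 tested, edgeR called 16 in sh_PIP4K2B, all lower, beside 2.77% of all genes in that direction, with a median log2 fold change of -0.85. In Soft it called 10, all lower, beside 14.8%, with a median of -0.50. There TOP2A, CCNB1 and PLK1 stayed near Control (log2 fold change 0.12, -0.01 and 0.05), and 3 of the 19 markers lay above 0. Between Soft and sh_PIP4K2B, edgeR called 9 of the 19 higher in Soft, beside 14.5% of all genes, and 1 lower, beside 15.5%. Their summed level was 2661 to 2688 CPM in the Control libraries, 1409 to 1841 with the hairpins and 1934 to 2023 on the soft gel. With each library left out in turn the counts of called markers were 1 to 17 in sh_PIP4K2B, beside 0.471% to 14.4% of all genes. Without Control replicates 1, 2 and 3 they were 3, 1 and 6 there, beside 0.872%, 0.471% and 1.15%. In Soft the counts were 6 to 12, beside 17.9% to 45.6%. In the fit of the 6 sh_PIP4K2B and Control libraries edgeR called 0 of the 19, beside 0.0375% of all genes. In that of the 6 Soft and Control libraries it called 16, beside 70.7%. DESeq2 called 17 in sh_PIP4K2B, beside 15.0%, and 12 in Soft, beside 39.6%. Limma voom called 12 and 15, beside 2.31% and 70.0%. Values of LMNB1, LMNB2 and SYNE2 were below Control in the same sh_PIP4K2B libraries, and the part of proliferation in them was not tested. In these bulk samples, fewer cells of a type and less RNA per cell cannot be told apart.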

How the data were processed

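Paired-end mRNA reads of 9 libraries were mapped by the authors with STAR to GRCh38 (hg38). The submitters' processing notes also name Salmon, with no role, and the gene annotation is not given in the sources used here. The deposited values are estimated counts per gene, not normalised, and 11.8% to 12.7% of them per library were not whole. They were rounded to whole numbers. Genes were filtered on low counts by condition and fitted with edgeR 4.0.16 (TMM scaling, quasi-likelihood F test) in 1 fit of the 9 libraries, with Benjamini-Hochberg adjustment over all 13784 genes tested and a threshold of 0.01. CPM values are TMM-normalised. The test was checked on simulated counts drawn with the same spread per gene in all conditions. The data had unequal spread, so that check cannot show how the test behaves under it. DESeq2 1.42.0, limma 3.58.1, other filters, scalings and fits, and leaving out each library were alternatives. Transcript lengths and gene positions came from GENCODE on GRCh38, upstream windows from RefSeq. No 2 libraries of a condition agreed within sampling noise. The members, lists and tests were chosen with earlier results of these data known. Named from the other envelope lists were up to 2 called genes with the highest and 2 with the lowest log2 fold change per comparison with Control. Gene counts do not separate isoforms.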

Additional observations from a re-analysis of the deposited data

How the results depend on the processing

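For sh_PIP4K2B against Control the count of members past the threshold was 0, beside 5.54% of all genes, a share given in brackets below. It became 3 with DESeq2 (15.0%), 1 with limma voom (2.31%) and 3 at a threshold of 0.05 (17.2%). With each library left out in turn it was 0 to 3 (0.471% to 14.4%). For Soft against Control the count was 4 (30.6%), and became 7 with limma voom (70.0%) and with the 6 libraries alone (70.7%). It was 2 with library size scaling (28.7%) and 1 to 5 with each library left out (17.9% to 45.6%). For Soft against sh_PIP4K2B the count was 5 (30.0%). It became 6 with DESeq2 (39.2%), 4 with limma voom (18.6%) and 2 with the 6 libraries alone (16.1%), and was 3 to 7 with each library left out (16.8% to 38.4%).

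The main fit did not pair libraries by replicate number. Same-numbered deviations had correlations of -0.12 to -0.03 between Control and Soft and of 0.0012 to 0.0063 between Control and sh_PIP4K2B. Between sh_PIP4K2B and Soft they were 0.020 to 0.041, and -0.034 to 0.0003 for unlike numbers. These were small and differed in sign between the pairs of conditions. With the replicate block the counts were 0, 2 (LBR and SUN2) and 4, beside 2.14%, 25.7% and 24.4% of all genes. The block ended the calls of LMNA (adjusted p = 0.016), LMNB2 (0.013) and ICMT (0.011) in Soft against Control, of LMNB1 in Soft against sh_PIP4K2B (0.0103), and of TMPO (0.019) and VRK1 (0.021) in sh_PIP4K2B against Control, all in edgeR.

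Only log2 fold changes that had not passed changed sign. In Soft against Control, SUN1 became 0.013 with at least 10 counts in every library, 0.10 with library size scaling and 0.048 with upper quartile scaling, and LMNB1 became 0.028 with library size scaling. With that scaling SUN1 was 0.023 and SUN2 0.034 in sh_PIP4K2B against Control. LMNB2 was 0.012 in Soft against sh_PIP4K2B with upper quartile scaling. With each library left out, SUN1 ranged from -0.045 to 0.019 in Soft against Control. In sh_PIP4K2B against Control, SUN1 ranged from -0.33 to 0.031, SUN2 from -0.14 to 0.0087 and SYNE1 from -0.018 to 0.54. In Soft against sh_PIP4K2B, EMD ranged from -0.18 to 0.14, SUN1 from -0.042 to 0.31 and BANF1 from -0.046 to 0.14. Of the log2 fold changes under an alternative, 438 kept their direction and call, 36 lost a call, 20 gained one and 16 changed sign; the cause was not tested. Library size scaling moved the median log2 fold change of all genes by 0.09 in sh_PIP4K2B and by 0.11 in Soft. With 1 library per hairpin, differences between hairpins and between samples cannot be told apart.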
